A study of Homo sapiens with 6 samples.

Results

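Cadherins are cell-surface proteins whose extracellular repeats bind calcium and, in most members, the cadherins of a neighbouring cell. The set described here held 58 of the 19201 entries of a gene count table from H1299 cells, a human line of lung carcinoma (non-small cell) that has long been in culture. Membership followed a rule on gene names: numbered cadherins (CDH), protocadherins (PCDH), desmocollins (DSC), desmogleins (DSG), the giant FAT cadherins and the CELSR receptors. Names containing -AS were left out, and so was the entry named CDH2, whose Ensembl identifier belongs to another gene. Of the 58, 56 were protein-coding. PCDHB17P is a pseudogene, and PCDH10-DT is a long non-coding RNA read in the opposite direction from the start of PCDH10.

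RNA-seq libraries came from 3 wild-type samples of H1299 and 3 samples of the same line made to overexpress lncBCAS1-4_1, a long non-coding RNA. No vector is named for the wild-type cells, so the overexpressed RNA and the procedure that introduced it cannot be told apart. The labels do not say whether the overexpressing cells are a clone or a pool, nor that the replicates were grown apart. Every p-value below is therefore set against a spread that may be technical. The series title names epithelial-mesenchymal transition, in which cells exchange cadherins, as an outcome of interest, and the comparison asks how the RNA of the adhesion genes differs between these groups. No entry named for lncBCAS1-4_1 was analysed here. In bulk RNA, fewer cells of a type and less RNA per cell cannot be told apart.

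Total counts were 84531039 to 92780032 per library. Of 6 epithelial markers 4 had an entry, and KRT8 and KRT18 stood at 368 and 956 CPM (counts scaled to a common library total) in the wild-type cells and at 446 and 1300 CPM in the overexpressing cells. KRT7 stood at 2.79 and 5.09 CPM and KRT19 at 0.184 and 0.17 CPM. EPCAM and CDH1, the gene of E-cadherin, were not analysed here. The lung lineage factor NKX2-1 was under 1 CPM in every library. Of the marker lists of other cell types, 3 of 6 leukocyte, 3 of 5 endothelial and 3 of 6 fibroblast genes had an entry. The leukocyte list summed to 72.4 to 76.9 CPM in the wild-type and 82.2 to 91.6 CPM in the overexpressing libraries, nearly all of it CD68, a lysosomal protein that other cells also make, and PTPRC, the pan-leukocyte marker, had no entry. The endothelial list summed to between 0.479 and 1.13 CPM and the fibroblast list to between 2.16 and 3.58 CPM. Their part in the results was not tested.

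Classical cadherins join cells through the catenins that bind their tails, and desmosomal cadherins do the same for keratin filaments. FAT and CELSR proteins carry very large extracellular parts and act in growth control and planar cell polarity. Most protocadherins lie in 3 neighbouring clusters, alpha, beta and gamma, on chromosome 5, where each variable exon has its own promoter. The cells of a tissue switch on different members of these clusters, and the choice is known to involve promoter methylation, CTCF and cohesin. Alpha and gamma members splice their variable exon to constant exons that the whole cluster shares, while each beta gene is a single exon.

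The promoters of the clusters are known for a conserved element with the core CGCT. The sequences below show where this core lies in 6 clustered members described further on, with the GC-rich promoters of DSG2 and FAT1 for contrast. Each is the 100 bases before a RefSeq start (GRCh38.p14), written 5′ to 3′ on the gene's strand, with every CGCT in capitals. The windows are chr5:141343729-141343828 for PCDHGA3, chr5:141094515-141094614 for PCDHB2, chr5:141412887-141412986 for PCDHGA10, chr5:141135106-141135205 for PCDHB5, chr5:141370142-141370241 for PCDHGB3 and chr5:140786040-140786139 for PCDHA1, all on the plus strand. Those of the unclustered genes are chr18:31498077-31498176 on the plus strand for DSG2 and chr4:186726697-186726796 on the minus strand for FAT1.
PCDHGA3: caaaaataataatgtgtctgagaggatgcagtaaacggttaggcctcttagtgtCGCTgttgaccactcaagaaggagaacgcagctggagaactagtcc
PCDHB2: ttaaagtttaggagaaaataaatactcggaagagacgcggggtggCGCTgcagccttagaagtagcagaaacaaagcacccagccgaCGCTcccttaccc
PCDHGA10: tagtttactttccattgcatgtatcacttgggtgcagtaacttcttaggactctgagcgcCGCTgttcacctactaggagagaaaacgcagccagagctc
PCDHB5: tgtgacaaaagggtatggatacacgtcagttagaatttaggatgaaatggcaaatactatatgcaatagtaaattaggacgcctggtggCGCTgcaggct
PCDHGB3: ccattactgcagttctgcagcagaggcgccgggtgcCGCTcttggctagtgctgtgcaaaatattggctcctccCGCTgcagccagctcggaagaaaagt
PCDHA1: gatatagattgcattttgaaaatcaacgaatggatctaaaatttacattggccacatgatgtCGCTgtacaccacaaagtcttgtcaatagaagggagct
DSG2: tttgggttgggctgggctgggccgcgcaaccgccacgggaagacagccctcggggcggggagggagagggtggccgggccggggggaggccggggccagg
FAT1: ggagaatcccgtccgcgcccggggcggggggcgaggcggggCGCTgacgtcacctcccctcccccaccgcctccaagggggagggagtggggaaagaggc

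RefSeq gave such windows for 35 of the 40 clustered members, 37 windows in all because some genes have several starts. CGCT stood on the gene's strand in 33 of them (89.2%), against 9866 of 35116 windows over all genes (28.1%). On the opposite strand, where it reads AGCG, it stood in 24.3% of the clustered windows and 28.4% of all windows. The clustered windows had a median GC content of 46.0%, and the windows of the other members one of 68.5%. Among the 14 windows of the other members, 5 held it on the gene's strand (35.7%). The windows without it belonged to PCDHB8, PCDHGB1, PCDHGB2 and PCDHGB6. PCDHGB1 and PCDHGB6 each held it in the window of another start, while PCDHB8 and PCDHGB2 had no window with it. PCDHGB2 is called further on and its sequence is not shown. The core was found at members of high and of low RNA level alike: PCDHGA3, the most abundant clustered member, and PCDHA1, with 3 wild-type counts in all, both carry it.

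Over the 6 libraries, 28 of the 58 members reached a mean level of 1 CPM, and the lowest mean, of PCDHA2, was 0.0878 CPM. FAT1, whose product is a giant cadherin that acts on growth control and actin, had the highest count of the set. Per kb of the canonical transcript, the order in the wild-type cells began with DSG2 at 14.5 ± 0.89 CPM per kb (SD, n = 3), FAT1 at 9.83 ± 0.15, PCDHGA3 at 8.02 ± 0.62, PCDHB6 at 7.92 ± 0.41 and PCDHB5 at 7.14 ± 0.34. PCDHGA3 and PCDHB6 did not differ beyond their spread. In the overexpressing cells PCDHGA3 stood at 10.7 ± 0.45 CPM per kb and DSG2 at 10.1 ± 0.77, again within their spread of each other. In PCDHGA3, 45.3% of the transcript is constant exons shared with the other gamma genes, so its level per length depends on how the authors' counting split those reads. Another 47 protein-coding genes with matching names in GENCODE 44, CDH1 and CDH2 among them, were not analysed here.

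**Figure D1:**
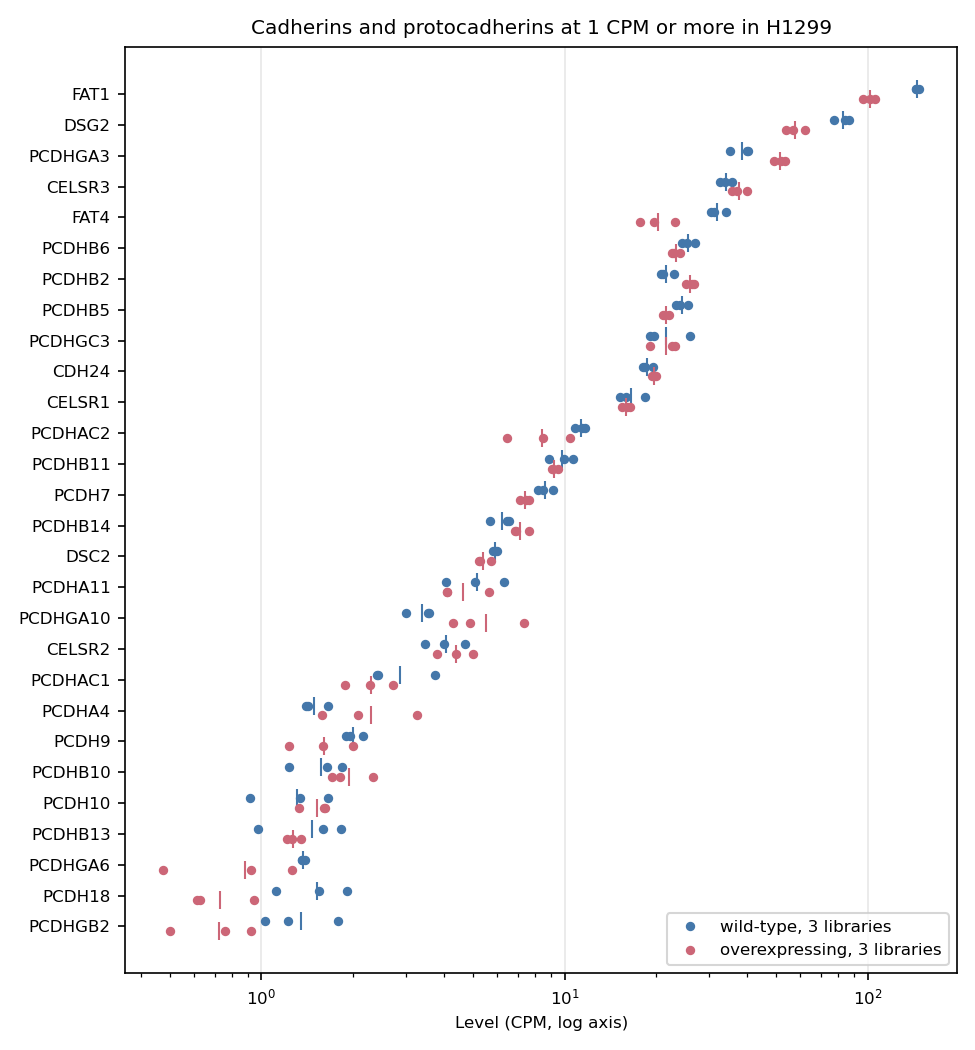
Level of each of the 28 members with a mean of at least 1 CPM (horizontal log axis, CPM) in the 3 wild-type and 3 overexpressing libraries (points; the bar is the group mean). FAT1, DSG2 and FAT4 stand lower and PCDHGA3 and PCDHB2 higher in all 3 overexpressing libraries than in any wild-type library.

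Between the groups, 4 members passed as higher under overexpression and 6 as lower by edgeR's quasi-likelihood test at a Benjamini-Hochberg adjusted p under 0.05. That is 6.9% and 10.3% of the 58 (17.2% called), while 18.3% and 19.7% of all 19101 entries tested were higher and lower (38.0% called). PCDHA1, one of the 4, was in the table only through the overexpressing libraries, so it had to differ in that direction to be listed. The difference between the 2 shares was not tested. The median log2 fold change (overexpressing over wild-type) was -0.15 over the members and -0.0041 over all entries tested. Of the 28 members at 1 CPM or more, 3 were higher (10.7%) and 5 lower (17.9%), against 23.8% and 26.2% of the 13956 entries at that level. By the rule in the labels, over 2-fold with an unadjusted p under 0.05, 1 member, again PCDHA1, was higher and 2 were lower, where 1.77% and 1.18% of all entries were (2.95% in either direction). Counted without a test, all 3 overexpressing libraries lay above the wild-type libraries for 8 members and below them for 12, against 24.7% and 26.0% of all entries (50.7% in either direction).

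Across the table, fold changes were larger at higher transcript GC content. Over 13887 entries at 1 CPM or more with known GC content, Spearman's rho across genes, which are not independent replicates and share their libraries, was 0.66, and over the 28 members at that level it was 0.31. A second fit therefore gave each library its own offsets by GC content and by length, which left a rho of 0.006 over the same entries. With these offsets 4 members were higher and 6 lower, where 11.5% and 11.1% of all entries were (22.6% called). Call and direction were kept by 7 of the 10 members called as fitted, PCDHA1 among them. Of the 7250 entries called as fitted, 2819 kept theirs. Of the 28 members at 1 CPM or more, 32.1% were called with the offsets, against 29.8% of the entries at that level, so the members' lower share as fitted was not seen there. Values with the offsets are given beside each gene below. The 3 most abundant members that were lower, FAT1, DSG2 and FAT4, had GC contents of 46.3%, 41.2% and 45.8%, and their differences were smaller with the offsets.

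**Figure D2:**
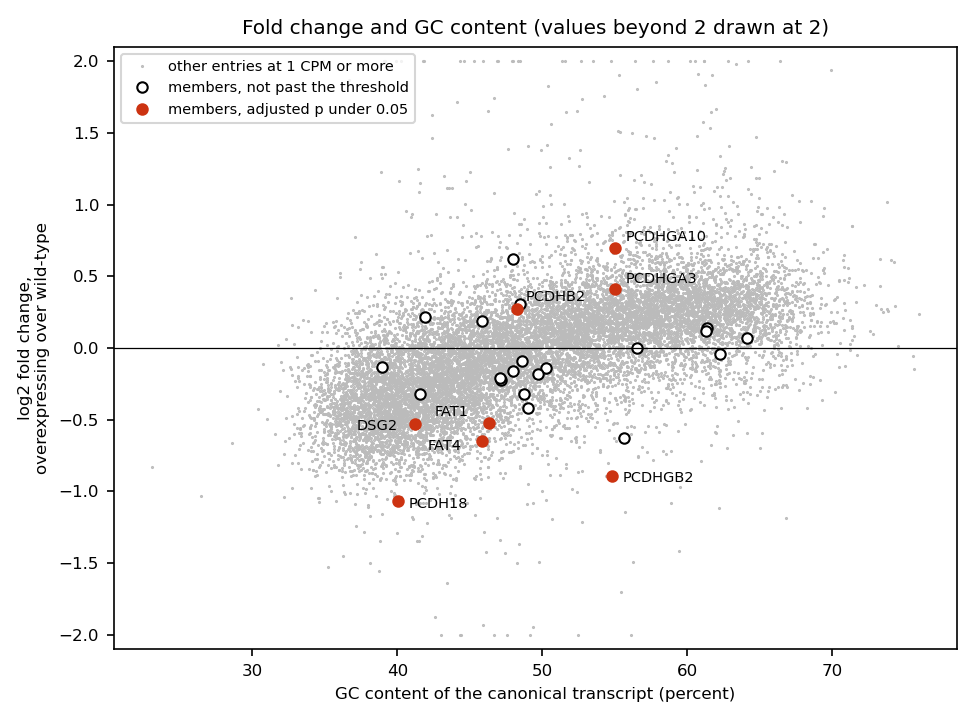
Log2 fold change (vertical axis, values beyond 2 drawn at 2) against the GC content of the canonical transcript in percent (horizontal axis) for entries at 1 CPM or more (grey) and the 28 members at that level (circles, red where the adjusted p was under 0.05). PCDHGB2 at 54.8% and PCDH18 at 40.1% GC lie below the bulk of entries of their GC content, while DSG2 at 41.2% lies nearer to it.

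The FAT cadherins with an entry, FAT1 and FAT4, both fell. FAT2 and FAT3 were not analysed here. FAT1 was counted at 13172, 13604 and 12966 in the wild-type libraries and at 8141, 8825 and 9187 in the overexpressing ones. Every overexpressing library was below every wild-type library, and the spread within a group was small beside the gap. Mean levels were 145 ± 2.17 CPM (wild-type) and 101 ± 4.68 CPM (overexpressing; SD, n = 3 per group), for a log2 fold change of -0.52 with SE 0.045 (edgeR adjusted p = 0.000146). FAT4, a partner of the Dachsous cadherins in planar polarity, had mean levels of 31.8 ± 1.87 and 20.3 ± 2.7 CPM, for a log2 fold change of -0.65 with SE 0.1 (edgeR adjusted p = 0.0011). Its counts were 3027, 2940 and 2736 against 1505, 1655 and 2084, again without overlap. With the GC and length offsets both were still lower, at -0.19 for FAT1 (adjusted p = 0.00803) and -0.3 for FAT4 (adjusted p = 0.0267). The median over all entries at 1 CPM or more within 1 percentage point of their GC content was -0.091 for FAT1 and -0.11 for FAT4. Both genes are on chromosome 4, with FAT1 at 186587794 to 186726722 (minus strand) and FAT4 at 125314918 to 125492932 (plus strand; GENCODE 44, GRCh38).

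Of the desmosomal cadherins, DSG2 fell and DSC2 did not pass the test. DSG2, the desmoglein of simple epithelia, had 7755, 7988 and 6932 counts in the wild-type libraries and 4779, 4479 and 5604 in the overexpressing ones, without overlap. Mean levels were 82.9 ± 5.09 CPM (wild-type) and 57.5 ± 4.4 CPM (overexpressing; SD, n = 3 per group), for a log2 fold change of -0.53 with SE 0.067 (edgeR adjusted p = 0.000487). The value with offsets was -0.16 (adjusted p = 0.0133), and the median of entries of like GC content was -0.32. DSC2, its desmocollin counterpart, had 534, 556 and 521 counts against 484, 435 and 472 (log2 fold change -0.13, SE 0.11, adjusted p = 0.442). With the offsets its sign turned and it passed as higher, at 0.42 (SE 0.12, adjusted p = 0.0323). DSC2 has the lowest GC content of the protein-coding members, 39.0%, in a long transcript of 12.331 kb, so its direction rests on whether that correction is made. DSG2 and DSC2 both lie on chromosome 18, from 31498177 to 31549008 and from 31058840 to 31102522.

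No member of the classical cadherins or of the CELSR family passed the test. CDH24, a type II cadherin, had 1626, 1743 and 1761 counts in the wild-type and 1664, 1670 and 1744 in the overexpressing libraries, and the groups overlapped (log2 fold change 0.072, SE 0.073, adjusted p = 0.499). With the offsets it stood at -0.19 and did not pass (adjusted p = 0.0519). CDH15, the muscle cadherin, was low throughout, with 34 to 56 counts in every library and a log2 fold change of 0.065 (SE 0.35). CELSR1, CELSR2 and CELSR3, receptors of planar cell polarity, had log2 fold changes of -0.045 (SE 0.094), 0.12 (SE 0.16) and 0.14 (SE 0.066). CELSR3 was the most abundant of these, at 34 ± 1.64 CPM in the wild-type and 37.5 ± 2.18 CPM under overexpression (SD, n = 3 per group; edgeR adjusted p = 0.126). CDH24, CDH15 and the CELSR genes were the GC-rich end of the set, with GC contents from 61.3% to 66.0%.

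Among the 7 protocadherins outside the clusters, PCDH18 fell and the others did not pass. PCDH18, one of the delta protocadherins, which are best known from the nervous system, had 138, 181 and 101 counts in the wild-type and 53, 51 and 85 in the overexpressing libraries. The groups did not overlap (log2 fold change -1.07, SE 0.28, edgeR adjusted p = 0.0144), but the call rested on single libraries. Without wild-type replicate 2 the adjusted p was 0.0647, without overexpressing replicate 1 it was 0.0547 and without overexpressing replicate 2 it was 0.0505. With the offsets the value was -0.66 (adjusted p = 0.0921), and the median of entries of like GC content was -0.35. PCDH7 was the most abundant of these protocadherins, with 756, 868 and 734 counts against 628, 595 and 689 (log2 fold change -0.22, SE 0.11, adjusted p = 0.148), a difference of 0.023 with the offsets. PCDH9 and PCDH10 stood at -0.32 (SE 0.21) and 0.22 (SE 0.24), and PCDH1, PCDH12 and PCDH19 had at most 45 counts in any library. PCDH10-DT had 14 to 63 counts and a log2 fold change of 0.64 (SE 0.54), beside 82 to 149 counts for PCDH10 itself.

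**Figure D3:**
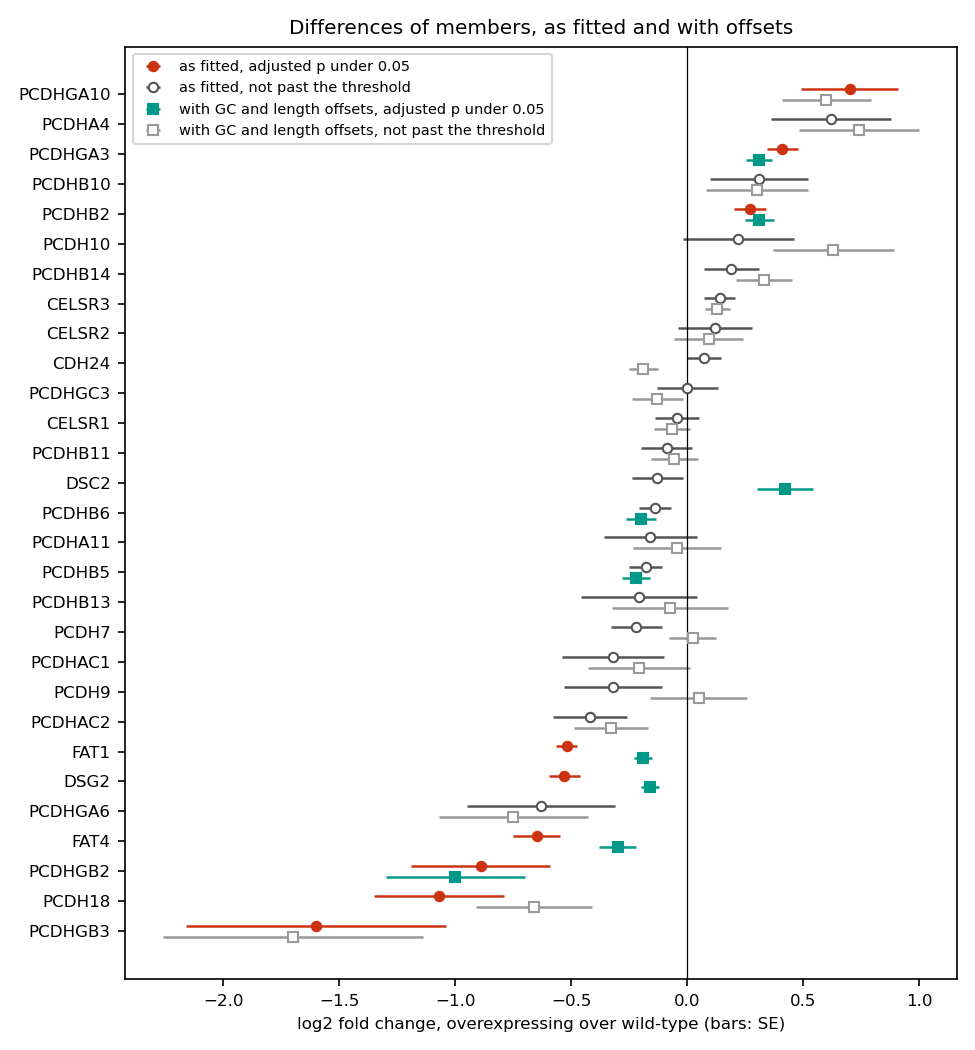
Log2 fold change (horizontal axis, overexpressing over wild-type; bars are the SE) of 29 members, those at 1 CPM or more and those called in either fit except PCDHA1, as fitted (circles) and with GC and length offsets (squares); filled symbols have an adjusted p under 0.05. FAT1, DSG2 and FAT4 keep their direction with smaller values, DSC2 changes sign, and PCDHGA3 and PCDHB2 pass in both fits.

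The 3 protocadherin clusters were unevenly used. The 14 beta entries summed to 94.3 ± 5.1 CPM in the wild-type and 93.5 ± 0.92 CPM under overexpression (SD, n = 3 per group). The 15 gamma entries summed to 70.5 ± 5.7 and 83.9 ± 5.1 CPM, and the 11 alpha entries to 23.9 ± 1.1 and 20 ± 0.84 CPM. As log2 differences of the sums these were -0.013 (SE 0.048) for beta, 0.25 (SE 0.068) for gamma and -0.26 (SE 0.073) for alpha, and with the offsets 0.018, 0.15 and -0.14. The gamma and alpha differences had opposite signs and were larger than their errors, and the beta difference was smaller than its error. No p-value is given for these sums, because they are totals over members chosen by name. In each cluster a few members held most counts: the leading 3 held 92.0% of the gamma, 78.8% of the alpha and 75.9% of the beta counts.

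**Figure D4:**
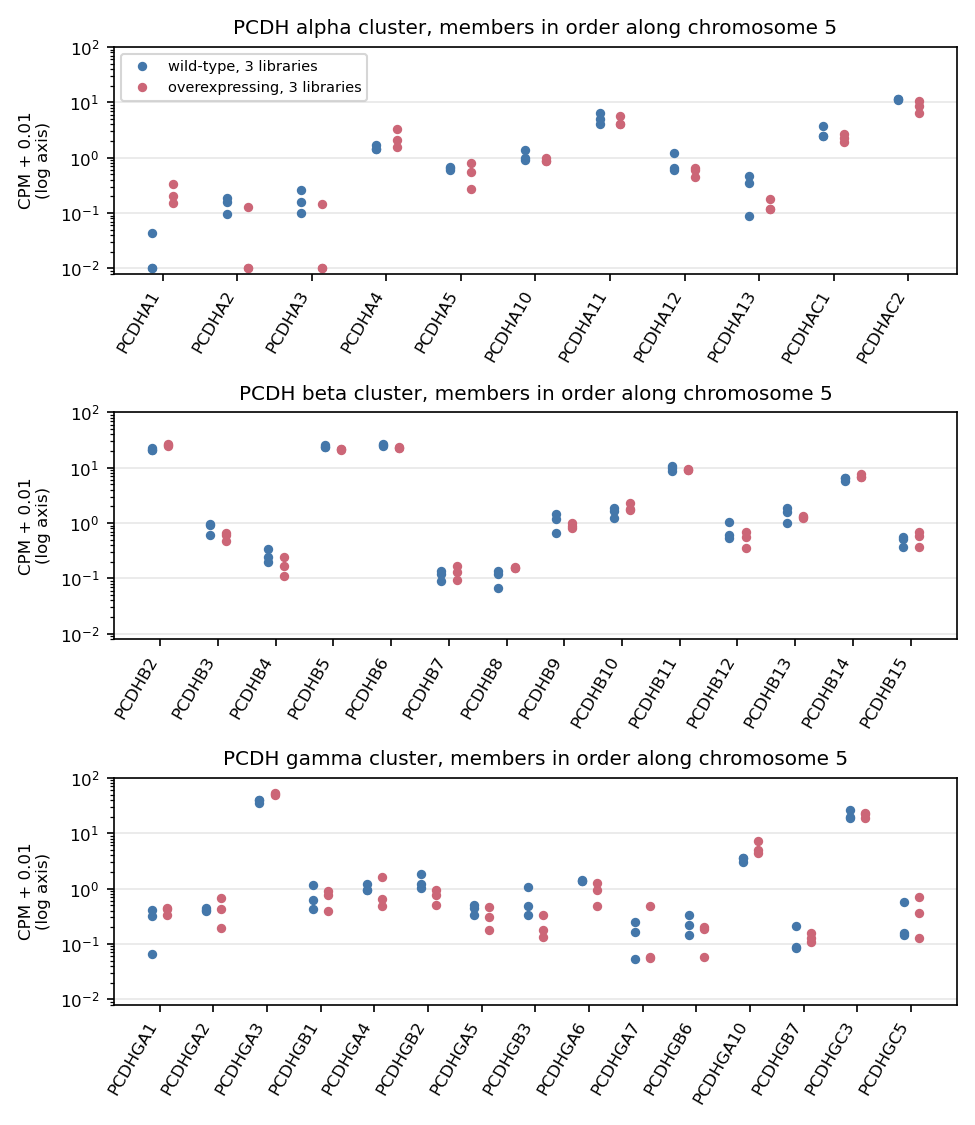
Level of every clustered member (vertical log axis, CPM + 0.01) in the 3 wild-type and 3 overexpressing libraries, in order along chromosome 5 for the alpha, beta and gamma clusters. PCDHGA3 and PCDHGC3 stand above the other gamma members, PCDHB2, PCDHB5 and PCDHB6 above the other beta members, and PCDHAC2 above the other alpha members in every library.

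In the gamma cluster PCDHGA3 rose. It had 3130, 3825 and 3599 counts in the wild-type and 4143, 4460 and 4638 in the overexpressing libraries, without overlap. Mean levels were 38.5 ± 2.97 CPM (wild-type) and 51.4 ± 2.18 CPM (overexpressing; SD, n = 3 per group), for a log2 fold change of 0.41 with SE 0.067 (edgeR adjusted p = 0.00138), and with the offsets the value was 0.31 (adjusted p = 0.00408). The median of entries of like GC content was 0.19. PCDHGC3, one of the C-type isoforms, had 1760, 1809 and 2337 counts against 1958, 1885 and 1719. Its groups overlapped and its log2 fold change was 0.00059 (SE 0.13). As a share of gamma counts, a measure that library scaling does not touch, PCDHGA3 took 54.5%, 56.8% and 52.9% in the wild-type and 60.6%, 59.5% and 63.8% in the overexpressing libraries. The share of PCDHGC3 was 30.6%, 26.9% and 34.3% against 28.7%, 25.2% and 23.6%. Whether reads of the shared constant exons were divided among members, or given to some of them, is not given in the sources used here, so differences between gamma members are uncertain. Of the 4 gamma entries called, PCDHGA3 was the one that passed with each library left out in turn.

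The other gamma calls were at low counts. Entries of like GC content had medians of 0.19 for PCDHGA10 and 0.18 for PCDHGB2. PCDHGA10 was higher, with 268, 336 and 322 counts against 362, 613 and 439 (log2 fold change 0.7, SE 0.21, edgeR adjusted p = 0.0236), and with the offsets it stood at 0.6 (adjusted p = 0.0528). Overexpressing replicate 2 was the highest of its libraries. Without that library the log2 fold change was 0.44 (adjusted p = 0.0729), and the call was also lost without wild-type replicate 1 (adjusted p = 0.0818) or 2 (adjusted p = 0.0537). PCDHGB2 was lower, with 92, 169 and 110 counts against 64, 77 and 45 (log2 fold change -0.89, SE 0.3, edgeR adjusted p = 0.0454; with the offsets -1, adjusted p = 0.041). PCDHGB3 was lower, with 94, 31 and 42 counts against 27, 14 and 11 (log2 fold change -1.6, SE 0.56, edgeR adjusted p = 0.0495; with the offsets -1.7, adjusted p = 0.0583). Both calls lay near the threshold and depended on single libraries. That of PCDHGB2 was lost without wild-type replicate 2 (-0.63, adjusted p = 0.184) or 3 (-0.96, adjusted p = 0.0645) and without overexpressing replicate 1 (-0.92, adjusted p = 0.0955) or 3 (-0.68, adjusted p = 0.118). That of PCDHGB3 was lost without wild-type replicate 1 (-0.96, adjusted p = 0.267) or 3 (-1.76, adjusted p = 0.0577) and without overexpressing replicate 2 (-1.48, adjusted p = 0.125) or 3 (-1.33, adjusted p = 0.126). PCDHGA6, which did not pass, had 121, 129 and 125 counts against 40, 105 and 83 (adjusted p = 0.162; 0.0499 without overexpressing replicate 2). Without overexpressing replicate 1 it stood at -0.33 (edgeR adjusted p = 0.336).

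In the beta cluster PCDHB2 rose while the cluster's sum differed by less than its error. PCDHB2 had 1857, 2005 and 2060 counts in the wild-type and 2122, 2191 and 2404 in the overexpressing libraries. Mean levels were 21.7 ± 1.12 CPM (wild-type) and 26 ± 0.816 CPM (overexpressing; SD, n = 3 per group), for a log2 fold change of 0.27 with SE 0.07 (edgeR adjusted p = 0.015), and with the offsets it was 0.31 (adjusted p = 0.00752). The median of entries of like GC content was -0.016. The groups did not overlap, yet the call of PCDHB2 was lost without wild-type replicate 1 (adjusted p = 0.0677) or 2 (adjusted p = 0.0643). PCDHB5 had 2086, 2273 and 2302 counts against 1808, 1852 and 1895, and PCDHB6 had 2257, 2312 and 2429 against 2035, 1896 and 2067. Their log2 fold changes were -0.18 (SE 0.07, adjusted p = 0.0786) and -0.14 (SE 0.07, adjusted p = 0.159), and both passed as lower with the offsets, at -0.22 (adjusted p = 0.0312) and -0.2 (adjusted p = 0.0475). PCDHB5 also passed with library size alone as the scaling (adjusted p = 0.0334).

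The makeup of the beta cluster shows the same counts without any scaling. PCDHB2 took 23.1%, 22.9% and 22.9% of the beta counts in the wild-type and 26.9%, 27.8% and 28.9% in the overexpressing libraries. PCDHB5 took 25.9%, 25.9% and 25.6% against 22.9%, 23.5% and 22.8%. PCDHB6 took 28.1%, 26.4% and 27.0% against 25.8%, 24.1% and 24.8%. So PCDHB2 was the smallest of these 3 shares in each wild-type library and the largest in each overexpressing library. No test was run on the shares. The 3 genes have GC contents from 48.3% to 50.3%, in single exons of 3.231 to 4.089 kb. An antisense gene, PCDHB1-AS1, overlaps 43.7% of the PCDHB2 transcript, and without a stated strand its reads cannot be told apart there. The beta genes are near-copies of one another, which can also split reads between them.

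The remaining beta members did not pass in either fit. PCDHB11 had 790, 944 and 961 counts against 769, 795 and 822 (log2 fold change -0.088, SE 0.11). PCDHB14 had 578, 537 and 588 counts against 583, 638 and 615 (log2 fold change 0.19, SE 0.12, adjusted p = 0.241; with the offsets 0.33, adjusted p = 0.0684). PCDHB10 and PCDHB13 stood at 0.31 (SE 0.21) and -0.21 (SE 0.25). Beyond these, 7 beta members had a mean under 1 CPM, and 9 of the 14 beta entries each held under 2% of the cluster's counts.

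In the alpha cluster most entries had negative fold changes, 9 of 11, but none passed as lower. Of all 19101 entries tested, 9616 were negative. The alpha entries share constant exons, 48.7% to 53.4% of each canonical transcript, so their signs may not be independent. PCDHAC2, a C-type isoform, held the largest alpha share, with 1041, 1024 and 1027 counts in the wild-type and 716, 866 and 579 in the overexpressing libraries. Its groups did not overlap (log2 fold change -0.42, SE 0.16, edgeR adjusted p = 0.0681; with the offsets -0.33, adjusted p = 0.172). It passed under DESeq2 (adjusted p = 0.0184), limma-voom (adjusted p = 0.0373) and library size alone (adjusted p = 0.0435), and without overexpressing replicate 2 (-0.6, adjusted p = 0.0159). It did not pass with any other library left out, and without overexpressing replicate 3 it stood at -0.26 (edgeR adjusted p = 0.145). PCDHA11 had 450, 599 and 365 counts against 345, 343 and 506, and PCDHAC1 had 215, 229 and 336 against 192, 157 and 244. Both overlapped between groups. PCDHA4 had 127, 157 and 126 counts against 176, 132 and 292 (log2 fold change 0.62, SE 0.26, adjusted p = 0.091), and passed without overexpressing replicate 2 (adjusted p = 0.0277). Without overexpressing replicate 3 it stood at 0.29 (edgeR adjusted p = 0.351).

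PCDHA1 was the alpha entry counted above as higher, on very few counts. It had 3, 0 and 0 counts in the wild-type and 12, 16 and 29 in the overexpressing libraries, 3 against 57 in all. No entry of the table falls short of 10 counts in 3 libraries, and PCDHA1 was the only member that met this in the overexpressing group alone, so its presence in the table already required a difference, and no test of it is given. Every base of its canonical transcript also lies in an exon of another gene, 53.0% of it in the shared alpha exons and 47.0% opposite an antisense gene. PCDHA2 and PCDHA3 had similarly few counts, 13, 8 and 16 against 10, 0 and 0, and 13, 24 and 8 against 0, 0 and 12, and neither passed (adjusted p = 0.319 and 0.297).

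In all, 30 members had a mean under 1 CPM, and apart from PCDHA1 and PCDHGB3 none of them passed as fitted. The SE of the log2 fold change ran from 0.24 to 1.26 over the 28 that did not pass, so smaller differences were not detectable at this depth. PCDHB17P, the pseudogene, ranged from 1 to 70 counts among the wild-type libraries alone.

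The proteins that cadherins work with were followed in lists chosen by function. Of 77 measured partner genes 14 were higher and 33 lower (median log2 fold change -0.14), and with the offsets 8 were higher and 16 lower (median -0.048). Over all entries at 1 CPM or more, 23.8% were higher and 26.2% lower as fitted, and 15.1% and 14.7% with the offsets. Among 20 catenins and plaque proteins, 5 were higher and 8 lower as fitted, and 4 were higher and 6 lower with the offsets. The smallest p belonged to PKP4, a plakophilin-related armadillo protein, at -0.52 on the log2 scale (edgeR adjusted p = 0.000239; -0.49 with the offsets). AFDN, the afadin that links nectins to actin, followed at -0.44 (-0.23 with the offsets), then PERP at -0.29 (0.026 with the offsets, not passing). DSP, the desmoplakin that ties desmosomes to keratin, went from 30.1 ± 2.1 to 21.2 ± 1.4 CPM (SD, n = 3 each), at -0.51 (adjusted p = 0.0013) and -0.27 with the offsets (adjusted p = 0.0157). NECTIN2 was higher at 0.33, and no longer passed with the offsets (0.048).

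The other catenin and plaque genes that passed were PKP2, NECTIN3, CTNNAL1 and PPL as lower (-0.67, -0.46, -0.55 and -0.42) and CTNNA1, EVPL, JUP and CTNND1 as higher (0.17, 1.77, 0.32 and 0.16). EVPL rested on few counts, at 0.125 ± 0.02 CPM in the wild-type and 0.427 ± 0.14 CPM under overexpression (SD, n = 3 each). Its SE was 0.48, and its level lay under the 1 CPM of the entries compared above. The desmosomal plaque protein PKP2 went from 20.5 ± 2.9 to 12.8 ± 1.1 CPM (SD, n = 3 each) and stayed lower with the offsets, at -0.55 (edgeR adjusted p = 0.00574). The desmosomal genes did not share a direction: beside DSG2, DSP and PKP2, which were lower in both fits, JUP was higher as fitted (0.068 with the offsets), DSC2 was higher with the offsets, and PKP3 passed in neither fit (0.16 and -0.14). Of the catenins, CTNNA1 and CTNND1 were higher in both fits (0.22 and 0.38 with the offsets). CTNNAL1, a catenin-like gene, was lower in both (-0.34 with the offsets). CTNNB1, the beta-catenin, stood at -0.11 and 0.034, CTNNA2 at -0.34 and -0.3 and ARVCF at 0.021 and -0.21, and none of these passed. These genes were singled out after their values were seen.

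Of 15 planar polarity and FAT partners 4 were higher and 7 lower as fitted, and none was higher and 3 were lower with the offsets. The 5 of smallest p were LIX1L (-0.29), FZD6 (-0.39), DLG1 (-0.59), FJX1 (-0.24) and LLGL1 (0.25). FJX1, related to the kinase that modifies FAT and Dachsous cadherins, stood at -0.56 with the offsets (edgeR adjusted p = 0.000181), a larger difference than as fitted. LLGL2 (0.58), DVL2 (0.23) and DVL3 (0.16) were also higher, and VANGL1 (-0.3), FZD3 (-0.46) and PRICKLE1 (-0.46) also lower. Of 9 shedding and turnover genes, ADAM9 was lower in both fits (-0.57 and -0.23). The sheddase ADAM10, which cleaves cadherins at the surface, passed in opposite directions, at -0.39 as fitted and 0.17 with the offsets (adjusted p = 0.0012 and 0.0185). PSEN2, ADAM15 and NCSTN were higher as fitted (0.53, 0.33 and 0.23) and none of these passed with the offsets.

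A list of regulators of cadherin genes had 10 measured genes, transcription factors apart from the splicing regulators ESRP1 and ESRP2. Of the 10, TCF4, TCF3, ZEB2 and ZEB1 were lower as fitted (-0.46, -0.21, -0.46 and -0.61). With the offsets TCF3 stood at -0.4 (edgeR adjusted p = 0.000173) and the other three did not pass. TWIST2 passed with the offsets alone (-0.4, adjusted p = 0.034). None of 5 other cadherin-repeat genes (DCHS1, DCHS2, CLSTN1, CLSTN3 and CDHR3) passed in either fit, with adjusted p as fitted from 0.169 to 0.932.

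The chromatin factors of the clustered promoters numbered 18, of which 12 were lower and 2 higher as fitted, with a median of -0.33. With the offsets 4 were lower and 1 was higher, with a median of -0.13. Of the 12, 9 have GC contents from 36.4% to 41.0%, and entries within 1 percentage point of the 40.1% of PCDH18 and the 41.2% of DSG2 had medians of -0.35 and -0.32. The 5 of smallest p were the cohesin regulators PDS5A (-0.67), NIPBL (-0.65) and PDS5B (-0.62), the cohesin subunit RAD21 (-0.54) and the cohesin release factor WAPL (-0.46). PDS5A and RAD21 were lower with the offsets too, both at -0.26 (edgeR adjusted p = 0.00139 and 0.00186), and the other three did not pass. The cohesin genes STAG1, SMC3 and STAG2 (-0.65, -0.59 and -0.6), SMCHD1 (-0.72) and the methyltransferases DNMT3A and DNMT1 (-0.2 and -0.1) were lower as fitted, and TRIM28 and MAU2 (0.22 and 0.24) higher. With the offsets STAG1 (-0.24, edgeR adjusted p = 0.0304) and DNMT1 (-0.18, adjusted p = 0.00669) were still lower, and the others in this group did not pass. SMC1A turned from -0.14 to 0.12 and passed both times (adjusted p = 0.024 and 0.0211). Whether these differences bear on the clusters was not tested.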

How the data were processed

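Per the labels' protocols, the authors cleaned reads with fastp, mapped them with HISAT2 on GRCh38, assembled transcripts with StringTie, merged them with gffcompare and tested with edgeR. No source used here gives versions, strand or how shared exons were counted. The deposited values are whole, unnormalized counts for 6 libraries. They were tested with edgeR 4.0.16 (R 4.3.3, quasi-likelihood F-test, group alone) after TMM scaling and filterByExpr (min.count 10), which kept 19101 entries and all 58 members. P-values were Benjamini-Hochberg adjusted over all entries (threshold 0.05). The SE is the fold change over the square root of F. GC content and length came from the GENCODE 44 canonical transcript (99.3% of entries), and offsets were natural splines of both (5 degrees of freedom each). Membership follows gene names, but the set and the lists were chosen with earlier results of these data known. Members past the threshold or at 1 CPM or more are given by library, and partners past the threshold by fold change, with up to 5 of smallest p per list. Replicates were not repeat deposits: their counts differed beyond sampling (chi-square over degrees of freedom 11.6 to 22.7). Alternatives were other scalings and filters, DESeq2 1.42.0, limma-voom (limma 3.58.1), a replicate block, the offsets and leaving out each library.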

Additional observations from a re-analysis of the deposited data

How the results depend on the processing

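FAT1, DSG2, FAT4 and PCDHGA3 kept their direction and their call in all 6 fits that left out a library and in the 9 fits with other scalings, filters, tools, the block or the offsets. Leaving out a library gave 1 to 4 members higher and 4 to 6 lower, 2586 to 3439 entries higher and 2867 to 3730 lower, and 9 to 14 partners higher and 26 to 31 lower. With the GC and length offsets 2193 entries were higher and 2122 lower, with 8 partners higher and 16 lower. DSC2 turned to 0.42, and PCDH18, PCDHGA10 and PCDHGB3 no longer passed. By the rule in the labels 338 entries were higher and 226 lower, with 1 member higher and 2 lower and 1 partner higher and 1 lower. The replicate numbers did not pair the samples: same-numbered libraries correlated at -0.0735, -0.262 and -0.438 in their deviations. With the replicate block 2681 entries were higher and 3014 lower, with 3 members higher and 6 lower. With block and offsets together there were 1742 and 1619 entries and 5 and 13 partners. PCDHA1 has no adjusted p under DESeq2, and PCDHA1 and PCDHGB3 were not tested at min.count 50. Among 20 uncalled members named here, 7 changed sign under at least 1 alternative. Members under 1 CPM rest on few counts, which limits what could be detected.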
